A study of Mus musculus with 2 samples.

Results

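Regulatory T cells that carried interferon-induced transcripts were described in a single-cell RNA sequencing study of T cells from mouse tumours. They made up 155 of the 16770 cells kept from both libraries, 13 in the mSTAR1302 library and 142 in the vehicle library. A cell was chosen by its own measured UMIs (unique molecular identifiers, each a counted transcript molecule), after barcodes with at least 1000 UMIs, at least 500 genes and at most 10% mitochondrial UMIs had been kept. It had at least 2 UMIs of Cd3d, Cd3e and Cd3g together, at least 1 of Cd4, 0 of Cd8a and Cd8b1, and at least 1 of Foxp3. It also had at most 2 UMIs of the cell-cycle genes Mki67, Top2a and Birc5, and at least 4 of the interferon-induced genes Ifit1, Ifit3 and Isg15. These cells are called interferon-high below. They were set against the other non-cycling Foxp3 cells, 101 in the mSTAR1302 library and 853 in the vehicle library, which passed the same limits but held at most 3 UMIs of the interferon genes. The levels of Foxp3, Isg15, Ifit1 and Ifit3 are therefore given as descriptions of the choice.

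The tumours were EMT6, a mouse mammary carcinoma line, grown under the skin of BALB/c mice of 4 to 6 weeks. Mice were randomised at a tumour volume of 80 to 150 mm3 to mSTAR1302, an antibody treatment given into the peritoneum in 2 weekly cycles, or to vehicle. CD4 and CD8 T cells were pulled from the digested tumours with magnetic beads and kept in medium before loading on a 10x 3′ chip. Each group was 1 library, and the labels do not say how many mice were in it, so no test between groups was possible and intervals below cover counting error only.

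Regulatory T cells are CD4 T cells that depend on the transcription factor Foxp3 and restrain other immune cells, in tumours as elsewhere. Interferons signal through their receptors to a promoter element, the interferon-stimulated response element (ISRE), and so induce a shared set of antiviral genes in most cell types. Type II interferon also acts through another element, the gamma-activated site (GAS). Isg15 encodes a ubiquitin-like modifier, Ifit1 a protein that binds foreign RNA, and Ifit3 a protein of the same family.

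The promoters of the genes that chose the cells are shown for the place of the match to the ISRE. With them are leading genes with a match in the stretch shown, taken from the comparison without macrophage-rich cells described below. Irf7 is listed as a leading gene that has none. The sequences are from RefSeq on GRCm38.p6 and give the 200 bases just before the annotated transcription start, 5′ to 3′ on the strand of the gene. Capitals mark each match to the ISRE core GAAANNGAAA on either strand.
Isg15, chr4:156200819-156201018, minus strand: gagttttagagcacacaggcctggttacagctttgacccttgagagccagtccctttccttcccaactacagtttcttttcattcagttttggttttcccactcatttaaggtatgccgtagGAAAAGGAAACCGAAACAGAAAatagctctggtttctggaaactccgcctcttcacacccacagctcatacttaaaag
Ifit1, chr19:34640689-34640888, plus strand: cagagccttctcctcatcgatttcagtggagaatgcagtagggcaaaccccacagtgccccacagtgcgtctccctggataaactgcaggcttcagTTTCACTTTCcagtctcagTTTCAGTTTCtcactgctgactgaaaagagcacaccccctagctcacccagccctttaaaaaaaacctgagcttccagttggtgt
Ifit3, chr19:34583329-34583528, plus strand: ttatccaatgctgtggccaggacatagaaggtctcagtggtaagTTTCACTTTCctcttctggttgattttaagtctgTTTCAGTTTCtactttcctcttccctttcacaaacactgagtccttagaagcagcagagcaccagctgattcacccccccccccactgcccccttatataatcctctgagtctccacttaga
Ifit3b, chr19:34607757-34607956, plus strand: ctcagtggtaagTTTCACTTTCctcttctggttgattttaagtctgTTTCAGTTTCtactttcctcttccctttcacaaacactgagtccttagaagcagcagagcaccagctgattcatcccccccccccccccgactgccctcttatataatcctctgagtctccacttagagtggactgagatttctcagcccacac
Rsad2, chr12:26456453-26456652, minus strand: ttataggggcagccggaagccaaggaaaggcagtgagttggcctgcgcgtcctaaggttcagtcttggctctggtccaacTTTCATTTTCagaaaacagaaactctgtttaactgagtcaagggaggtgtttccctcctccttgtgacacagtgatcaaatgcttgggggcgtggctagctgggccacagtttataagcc
Oas3, chr5:120777660-120777859, minus strand: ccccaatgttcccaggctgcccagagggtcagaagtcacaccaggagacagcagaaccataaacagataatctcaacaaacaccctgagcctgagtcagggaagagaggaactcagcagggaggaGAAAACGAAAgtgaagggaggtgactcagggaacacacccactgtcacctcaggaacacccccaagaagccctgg
Ifi206, chr1:173491319-173491518, minus strand: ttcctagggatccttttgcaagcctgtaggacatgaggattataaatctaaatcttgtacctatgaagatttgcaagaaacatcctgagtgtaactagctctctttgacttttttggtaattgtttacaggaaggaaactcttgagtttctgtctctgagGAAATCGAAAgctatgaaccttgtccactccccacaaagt
Ifi208, chr1:173673465-173673664, plus strand: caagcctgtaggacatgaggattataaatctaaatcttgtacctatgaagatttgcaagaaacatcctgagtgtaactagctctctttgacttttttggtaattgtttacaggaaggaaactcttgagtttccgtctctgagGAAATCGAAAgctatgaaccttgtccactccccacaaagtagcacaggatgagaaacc
Ifi214, chr1:173535958-173536157, minus strand: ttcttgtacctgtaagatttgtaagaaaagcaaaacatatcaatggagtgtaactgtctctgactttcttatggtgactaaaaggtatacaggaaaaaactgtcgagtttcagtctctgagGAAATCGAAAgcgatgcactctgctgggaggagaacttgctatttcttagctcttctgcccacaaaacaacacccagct
Irf7, chr7:141266425-141266624, minus strand: not shown

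In the window from 250 bases before to 50 bases after the start, Isg15 (chr4:156199424-156200818, minus strand, GENCODE M21) held 3 overlapping matches that ended 68, 62 and 56 bases before the start. Ifit1 (chr19:34640871-34650009, plus strand) held 2, which ended 94 and 75 bases before it, and Ifit3 held 2, at 146 and 112 bases. Ifit3b, a close copy of Ifit3 on the same chromosome, also held 2, at 178 and 144 bases. Cxcl10 (chr5:92346638-92348889, minus strand) held 1 match at 203 bases, outside the stretch shown above. Eif2ak2 held 1 at -28 bases, which lies past the start and so also outside that stretch. Mmp13, a leading gene only over all cells of the rule, held 1 match at 136 bases and is not shown. No match was found in the windows of Foxp3, Samhd1, Irf7, Ifi44 or Cmpk2, which says only that these letters are not there. Of 32851 RefSeq promoter windows, 3.44% held the core, and counted by gene 1079 of 27025 did (3.99%). Of the 49 antiviral effector genes with a window, 21 held it (42.9%), as did 9 of the 10 interferon-induced GTPases and 5 of 18 MHC class I genes (27.8%). None of the 16 regulatory T cell identity genes with a window did. The GAS letters TTCNNNGAA were in 8.3% of all windows and 9.55% of genes. They were in 10 of the 49 effector genes (20.4%), 6 of the 10 GTPases (60.0%) and 1 of the 18 MHC class I genes (5.56%). Shares like that of the effectors were found among the identity genes (3 of 16, 18.8%) and the effector genes of tumour regulatory T cells (4 of 20, 20.0%). No GAS match overlapped an ISRE match in the windows of the genes shown above.

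Depth and free RNA bear on the results. The vehicle library was deeper, with a median of 6260 UMIs per cell in the mSTAR1302 library and 8448 in the vehicle library, and 17 cell barcodes occurred in both. Interferon-high cells were themselves deeper than the other Foxp3 cells, with median UMIs of 7479 and 5868 in the mSTAR1302 library and 9064 and 6907 in the vehicle library. Free RNA was read from near-empty droplets of 10 to 100 UMIs. There, Isg15, Ifit1 and Ifit3 together reached 157 UMIs per 1000000 of the summed UMIs (CPM) in the mSTAR1302 library and 156 CPM in the vehicle library. The interferon-high cells of the same libraries, chosen for these genes, stood at 1181 and 1222 CPM. The other Foxp3 cells, held to at most 3 UMIs of them, stood at 110 and 79.3 CPM, below the near-empty droplets. Single genes in the near-empty vehicle droplets stood at 2074 CPM for Ifi27l2a, 732 CPM for Ly6a and 152 CPM for Foxp3. Samhd1 stood at 151 CPM there, Isg15 at 118 CPM and Iigp1 at 36.1 CPM. Free Foxp3 RNA was at 27.0 CPM under mSTAR1302. Non-cycling vehicle Foxp3 cells, grouped by their interferon UMIs, held Foxp3 at 422 to 515 CPM, but the rule chose them for a Foxp3 UMI. Macrophage-like cells, which should lack Foxp3, had a UMI of it in 0% of 27 cells under mSTAR1302 and 6.41% of 78 under vehicle. These cells had no Cd3 UMI, at least 4 of 12 macrophage genes, and median depths of 8284 and 20395 UMIs. Thinned to 3000 UMIs per cell, the share in the vehicle library was 3.03%. It was 70.9% in the interferon-high cells and 74.7% in the other Foxp3 cells, but the rule chose both sets for a Foxp3 UMI. That contrast therefore follows in part from the rule.

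A few barcodes that passed the rule carried another cell type's transcripts. The 12 macrophage and monocyte markers gave 2833 UMIs in the 142 interferon-high vehicle cells, and 2712 of these came from only 2 barcodes. The first held 48130 UMIs, 2650 of them from macrophage markers, 168 from the interferon genes, 367 from Cxcl9, 324 from Cxcl10 and 1 from Foxp3. The second held 19813 UMIs, 62 of them from macrophage markers, with 235 of Il1b and 58 of Cxcl9. Of the other 140, 66 had no macrophage UMI. The 13 interferon-high cells of the mSTAR1302 library had 0 macrophage UMIs. Doublets were not called, so they remain, and the gene and list comparisons of the vehicle library are read also in cells with fewer than 2 macrophage UMIs, here called macrophage-low: 111 interferon-high and 681 other Foxp3 cells. That limit keeps these markers low in both sets by construction. In macrophage-low cells the markers summed to 43.2 CPM against 52.0 CPM, with Csf1r, Adgre1 and Fcgr1 at 0 in the interferon-high cells. Among all cells of the rule the markers summed to 1964 and 273 CPM. Markers of plasmacytoid dendritic cells moved with them: 5 of 6 were at least 2-fold higher over all cells (Siglech, Bst2, Tcf4, Klk1 and Ccr9), summing to 831 and 343 CPM. Of all genes of at least 5 CPM, 3.76% were that much higher. In macrophage-low cells Siglech had 3 and 11 UMIs, Tcf4 4 and 44, Klk1 2 and 19, and Ccr9 0 and 14, which left Bst2, also an interferon-induced gene, as the only one at least 2-fold higher. The part of these markers in the results over all cells was not tested.

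**Figure D1:**
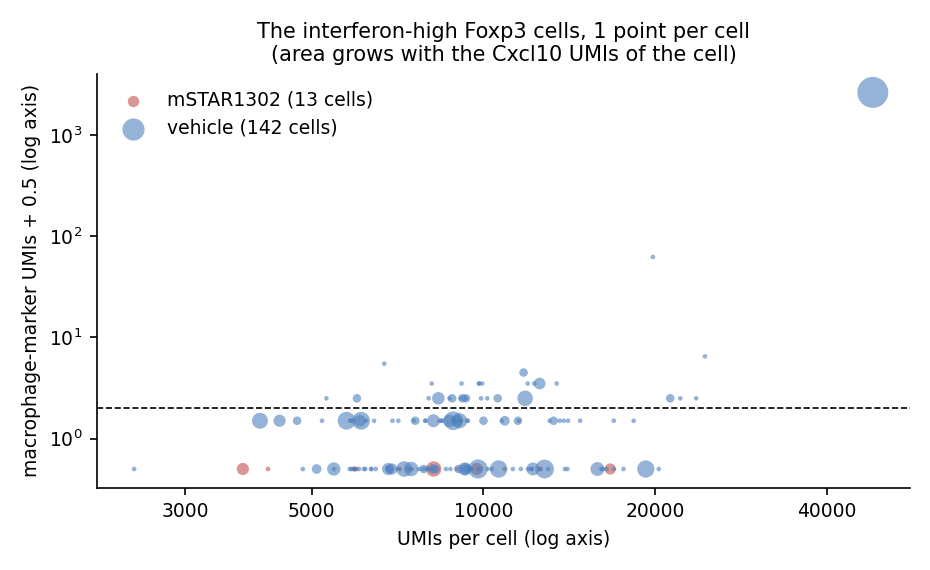
Each point is 1 interferon-high Foxp3 cell, with its UMIs on the horizontal log axis and its macrophage-marker UMIs plus 0.5 on the vertical log axis. A larger point has more Cxcl10 UMIs, and the dashed line separates cells with fewer than 2 macrophage UMIs from the rest. The vehicle cell at 48130 UMIs and 2650 macrophage UMIs stands far from the others.

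The rule drew a line through a continuous range. In the vehicle library 523 of 995 non-cycling Foxp3 cells had no UMI of the interferon genes, 54 had 3 and stood just outside the limit, 29 had 4 and stood just inside it, and 51 had 10 or more. Of the 114 such cells of mSTAR1302 tumours, 49 had none, 5 had 3, 4 had 4 and 4 had 10 or more. Isg15 carried most of the choice: 139 of the 142 vehicle cells had an Isg15 UMI, 76 an Ifit1 UMI and 34 an Ifit3 UMI, 57 were chosen on Isg15 alone, and 24 had all 3 genes. All 13 cells of the mSTAR1302 library had Isg15, 5 had Ifit1 and 2 had Ifit3. Foxp3 had a median of 4 UMIs in interferon-high and 2 in other Foxp3 cells under mSTAR1302, and of 3 in both sets under vehicle.

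**Figure D2:**
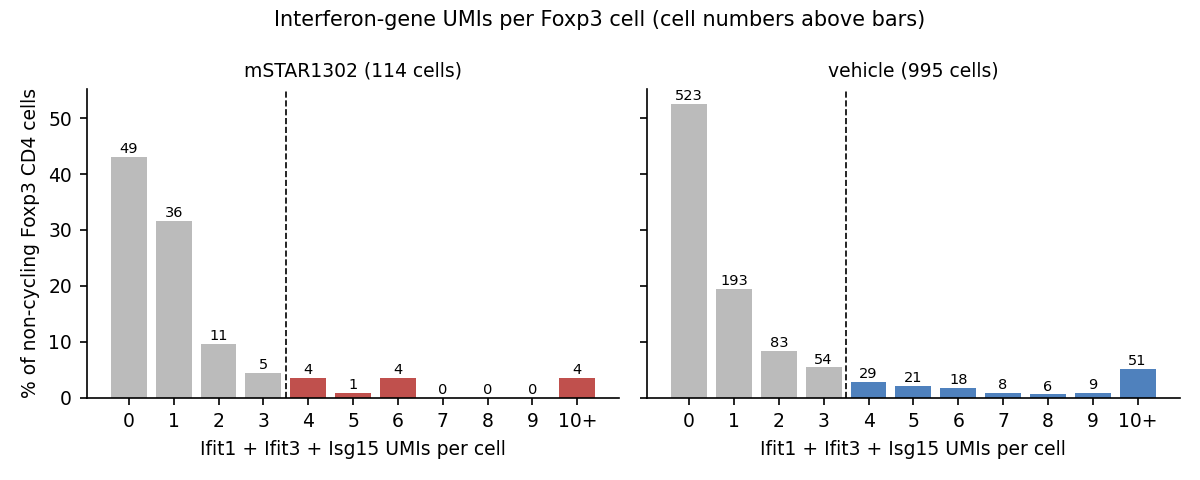
Bars give the percentage of non-cycling Foxp3 CD4 cells with each number of Ifit1, Ifit3 and Isg15 UMIs, for the mSTAR1302 library on the left and the vehicle library on the right. Numbers above bars are cells, coloured bars right of the dashed line are the interferon-high cells, and the vehicle counts run on without a gap across the limit, while no mSTAR1302 cell had 7, 8 or 9.

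Among the genes listed as antiviral effectors, a broad set of interferon-induced genes, the interferon-high vehicle cells were higher at nearly every gene measured. Of 56 effector genes with at least 5 CPM in either set, with the 3 genes of the rule left out, 45 were at least 2-fold higher over all cells of the rule and 46 in the macrophage-low cells. None was at least 2-fold lower in either, and all 56 had a ratio above 1 in both. Over all genes of at least 5 CPM, 3.76% passed that limit upward and 2.72% downward among all cells, and 2.2% and 4.14% did so among macrophage-low cells. The median log2 ratio of the list was 1.66 over all cells and 1.70 in macrophage-low cells, while all genes of at least 5 CPM had medians of -0.07 and -0.08. The summed level of the list was 19439 CPM in interferon-high and 8516 CPM in other macrophage-low cells, a fold of 2.28 (95% counting interval 2.24 to 2.32).

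The most abundant effectors were present in both sets and differed by amount. Ifi27l2a, a small mitochondrial protein gene, stood at 6919 CPM in interferon-high and 3082 CPM in other macrophage-low cells (2.25-fold, 2.18 to 2.31). Ly6a, which encodes the surface antigen Sca-1, stood at 3127 and 1298 CPM (2.41-fold, 2.31 to 2.51). Bst2, whose product tetherin holds virions at the cell surface, stood at 498 and 163 CPM (3.05-fold, 2.73 to 3.41), and was found in 63.6% of interferon-high and 31.2% of other cells once each cell was thinned to 3000 UMIs. Zbp1, a sensor of Z-form nucleic acid that can trigger necroptosis, stood at 496 and 168 CPM (2.95-fold, 2.64 to 3.30). Isg20, an exonuclease gene, stood at 390 and 110 CPM (3.54-fold, 3.11 to 4.03).

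By a rule on the interval bound nearest to 1, the 15 leading genes of at least 20 CPM in the macrophage-low cells were Ifit3b, Ifi44, Rsad2, Usp18, Ifi206, Cxcl10, F830016B08Rik, Cmpk2, Gm4951, Oas3, Ifi208, Ifi214, Irf7, Rtp4 and Eif2ak2. Ifit3b had 34.5 CPM in interferon-high and 1.22 CPM in other cells (28.3-fold, 11.8 to 82.3), though its reads may be split with those of Ifit3. Rsad2, which encodes viperin, had 58.5 and 5.69 CPM (10.3-fold, 6.48 to 16.7) and was found in 30 of 111 and 20 of 681 cells. Cmpk2, its neighbour on chromosome 12 and a mitochondrial nucleotide kinase gene, had 21.1 and 1.62 CPM (13.0-fold, 5.57 to 33.7). Oas3, which makes the 2-5A signal that activates RNase L, had 46.0 and 6.29 CPM (7.31-fold, 4.56 to 11.9), and Eif2ak2, the RNA-dependent kinase PKR, had 91.1 and 17.1 CPM (5.34-fold, 3.94 to 7.25). Ifi206, Ifi208 and Ifi214 belong to a cluster of similar DNA-binding genes on chromosome 1 and had ratios of 11.5, 6.30 and 5.58. Ifi44 had 32.6 and 1.62 CPM (20.1-fold, 9.12 to 50.2), with its 34 UMIs in only 8 of 111 cells. Of the 11 among these 15 genes with a RefSeq window, 8 held the ISRE core (72.7%), against 3 of 14 (21.4%) among the 15 leading genes over all cells of the rule, which are named further on.

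**Figure D3:**
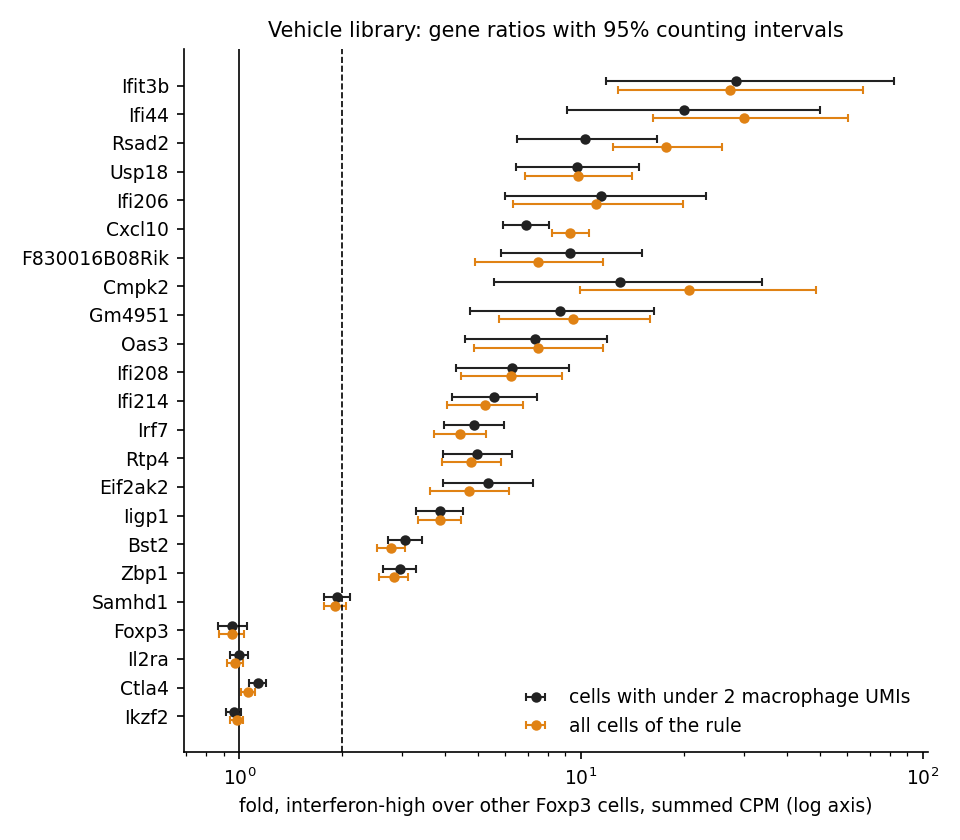
Fold of the summed CPM in interferon-high over other Foxp3 cells of the vehicle library, on a log axis, with 95% counting intervals for macrophage-low cells (black) and all cells of the rule (orange). The solid line is equality and the dashed line a 2-fold difference; Foxp3, Il2ra, Ctla4 and Ikzf2 sit near the solid line and Ifit3b lies farthest from it among macrophage-low cells.

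Cells differed widely within the set. Effector UMIs, the genes of the rule left out, made up a median of 181 per 10000 UMIs of a cell in the 111 interferon-high macrophage-low cells (lowest 36.6, highest 500) and 71.5 in the 681 others (lowest 4.54, highest 378). The ranges overlapped: 104 of the 111 lay above the median of the others, 55 lay above their 95th percentile of 183, and 36 of the 681 others lay above the interferon-high median. Without Ifi27l2a and Ly6a the medians were 82.9 and 38.7 per 10000, and 53 of 111 lay above the 95th percentile of the others.

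The interferon-induced GTPases, which attack the vacuoles of intracellular microbes, were higher as a group. Of 16 measured, 12 were at least 2-fold higher over all cells and 11 in macrophage-low cells, with a median log2 ratio of 1.21 and 1.18 and none at least 2-fold lower. Among all genes of at least 5 CPM, 3.76% and 2.2% were that much higher in these readings. The 2.72% and 4.14% that were lower do not set the absence of lower GTPases apart. Iigp1, an immunity-related GTPase on chromosome 18, had 272 CPM in interferon-high and 70.7 CPM in other macrophage-low cells (3.85-fold, 3.28 to 4.52), and a UMI in 40.9% and 12.5% of cells thinned to 3000 UMIs. Irgm1, a regulator of the same family, had 113 and 41.4 CPM (2.73-fold, 2.16 to 3.44), and Gbp7, a guanylate-binding protein gene, had 499 and 281 CPM (1.77-fold, 1.60 to 1.96). Tgtp1 had 16.3 and 2.84 CPM (5.74-fold, 2.66 to 12.6), and its near-identical copy Tgtp2 makes that value uncertain.

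Samhd1, which degrades the nucleotides that reverse transcription needs, was common in both sets. It had 727 CPM in interferon-high and 376 CPM in other macrophage-low cells, a fold of 1.93 (1.77 to 2.10) that stayed under the 2-fold limit. A UMI was found in 78.2% and 59.0% of thinned cells.

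Of 7 nucleic acid sensors, 3 were at least 2-fold higher and none lower in macrophage-low cells, with a median log2 ratio of 0.35 and a lowest of -0.43. Over all cells 4 were higher, with a median of 1.44. Among all genes of at least 5 CPM, 2.2% were at least 2-fold higher and 4.14% lower in macrophage-low cells. The absence of lower genes therefore does not set the sensors, or the signalling genes below, apart. The cytosolic RNA sensors Ifih1 (MDA5), Dhx58 (LGP2) and Ddx58 (RIG-I) were at least 2-fold higher in both readings, with 72.9 and 16.6 CPM for Ifih1, 41.2 and 8.73 CPM for Dhx58, and 130 and 38.4 CPM for Ddx58 in interferon-high and other macrophage-low cells. Of 13 signalling and transcription factor genes, 2 were at least 2-fold higher and none lower. These were Irf7, which amplifies type I interferon production, with 194 and 39.8 CPM (4.87-fold, 3.98 to 5.96), and Stat2, with 64.3 and 25.2 CPM (2.55-fold, 1.87 to 3.46). Irf9, a transcription factor of the type I response, had 92.1 and 60.3 CPM (1.53-fold, 1.20 to 1.93). Irf1, an early target of type II interferon, had 260 and 283 CPM (0.92-fold, 0.80 to 1.05). Among 7 feedback inhibitors 1 was at least 2-fold higher: Usp18, which removes ISG15 from proteins and blocks the type I receptor, with 72.9 and 7.51 CPM (9.70-fold, 6.47 to 14.8). Socs1, an inhibitor of JAK kinases, had 116 and 95.8 CPM (1.21-fold, 0.98 to 1.48).

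None of the 5 interferon receptor genes measured was at least 2-fold higher or lower in macrophage-low cells, a share that the 2.2% and 4.14% of all genes do not set apart. Ifnar1, a chain of the type I receptor, had 146 and 136 CPM in interferon-high and other cells (1.07-fold, 0.89 to 1.28), and Ifngr1, a chain of the type II receptor, had 622 and 644 CPM (0.97-fold, 0.89 to 1.05). Of 20 interferon genes looked up, only Ifng reached 5 CPM, with 34.5 CPM in interferon-high and 33.9 CPM in other macrophage-low cells (1.02-fold, 0.69 to 1.47).

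MHC class I and peptide-loading genes differed by less. None of 21 was at least 2-fold higher or lower, a share that the 2.2% and 4.14% of all genes in macrophage-low cells do not set apart. Of the 21, 17 had a ratio above 1 in macrophage-low cells, and the median log2 ratio was 0.32, with 0.27 over all cells. Psmb10, a subunit of the immunoproteasome, had 220 and 117 CPM (1.87-fold, 1.60 to 2.19), and H2-T22 606 and 371 CPM (1.63-fold, 1.49 to 1.79). The classical chain gene H2-K1 had 4531 and 4258 CPM (1.06-fold, 1.03 to 1.10). Class II genes gave different answers in the 2 readings: 6 of 7 were at least 2-fold higher over all cells of the rule, and 0 of the 5 measured in macrophage-low cells. Cd74, the invariant chain, had 607 and 153 CPM over all cells, but 43.2 and 31.5 CPM in macrophage-low cells (1.37-fold, 0.96 to 1.92).

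Cxcl10, which draws CXCR3-bearing T cells, was the only one of 7 chemokine genes that was at least 2-fold higher in macrophage-low cells. It had 395 CPM in interferon-high and 57.3 CPM in other cells (6.90-fold, 5.92 to 8.06), with a UMI in 36 of 111 and 80 of 681 cells and at most 44 and 27 UMIs in a cell. Over all cells it had 536 and 57.6 CPM, with 41.9% of its interferon-high UMIs in 1 barcode. The near-empty droplets of the vehicle library held Cxcl10 at 57.6 CPM, the level of the other Foxp3 cells. Cxcl9, its close relative, had 299 and 12.5 CPM over all cells but 4.79 and 1.83 CPM in macrophage-low cells (2.62-fold, 0.69 to 8.72), from 5 and 9 UMIs. Ccl5 had 194 and 207 CPM (0.94-fold, 0.80 to 1.09) and Ccl4 125 and 164 CPM (0.76-fold, 0.62 to 0.91) in the same cells. Among 18 chemokine and homing receptors, only Ccr10 passed the 2-fold limit there, on 11 and 8 UMIs with 9 of the 11 in 1 cell. Among all genes of at least 5 CPM in macrophage-low cells, 2.2% were at least 2-fold higher and 4.14% lower. The receptor count is near these shares.

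Cxcl10 did not follow the interferon genes step by step. In macrophage-low vehicle Foxp3 cells grouped by their Ifit1, Ifit3 and Isg15 UMIs, it had 65.7, 41.5, 51.2 and 36.1 CPM in cells with 0, 1, 2 to 3 and 4 to 5 UMIs, then 140 CPM with 6 to 9 and 936 CPM with 10 or more. A Cxcl10 UMI was present in 6 of 39 cells with 4 to 5 interferon UMIs, 7 of 30 with 6 to 9 and 23 of 42 with 10 or more. Other genes climbed earlier. Iigp1 had 54.1, 60.2, 137, 178, 209 and 411 CPM over the same 6 groups, and Irf7 33.4, 39.8, 60.1, 147, 136 and 283 CPM. Samhd1 had 344 CPM in cells with 0 interferon UMIs, 548 CPM with 6 to 9 and 1040 CPM with 10 or more. The effector list summed to 7401, 9426, 10853, 15021, 17819 and 24889 CPM, so cells just under the limit of the rule already stood above those with 0. The regulatory T cell identity list stayed between 10820 and 11749 CPM in all 6 groups. Median depth ran between 6356 and 9196 UMIs over the groups, and its part in these values was not tested.

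**Figure D4:**
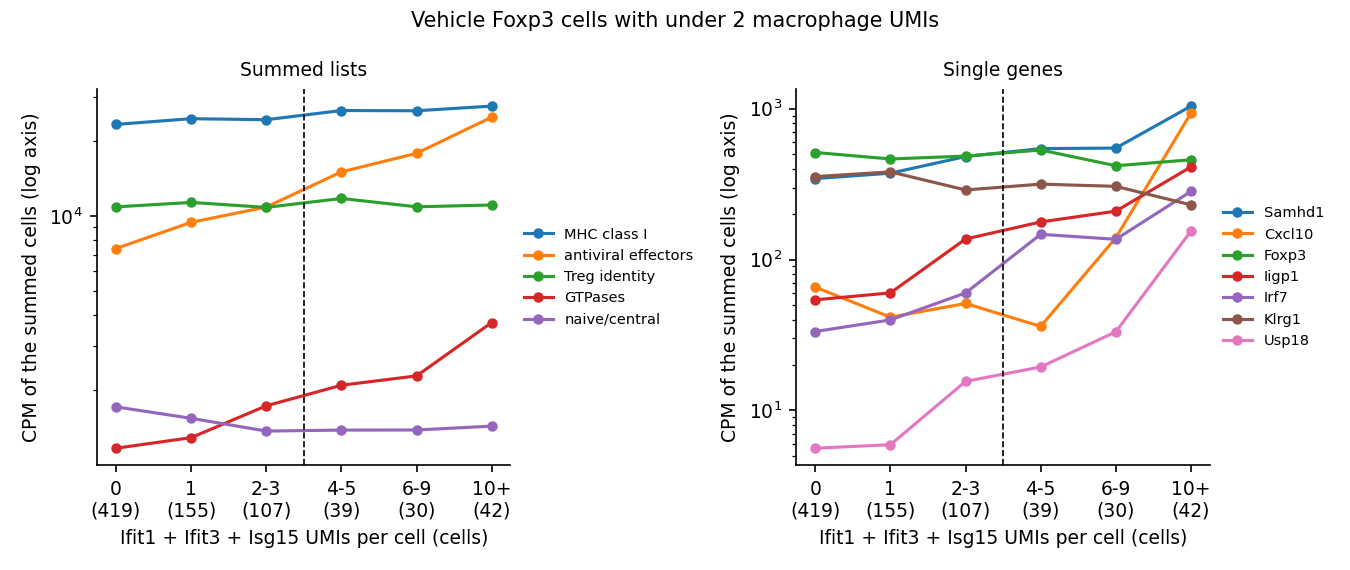
CPM of summed vehicle Foxp3 cells with fewer than 2 macrophage UMIs, on log axes, by the number of Ifit1, Ifit3 and Isg15 UMIs in the cell, with cell numbers in brackets. The left plot gives summed lists and the right one single genes, and the dashed line is the limit of the rule; effectors and GTPases climb through all 6 groups, the identity list runs flat, and Cxcl10 climbs from 6 UMIs on.

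The cells carried the markers of regulatory T cells beside Foxp3. Of 20 identity genes measured, Foxp3 not among them, 0 were at least 2-fold higher and 1 was lower in both readings. These counts are near the 2.2% and 4.14% of all genes in macrophage-low cells. The median log2 ratio of the list was -0.03 over all cells and -0.01 in macrophage-low cells. In macrophage-low cells Il2ra, the high-affinity interleukin-2 receptor chain, had 1179 CPM in interferon-high and 1179 CPM in other cells (1.00-fold, 0.94 to 1.06). Ctla4, an inhibitory receptor, had 1553 and 1373 CPM (1.13-fold, 1.07 to 1.19), and Ikzf2 (Helios) had 1707 and 1770 CPM (0.96-fold, 0.92 to 1.01). Tnfrsf18 (GITR) had 1208 and 1238 CPM (0.98-fold, 0.92 to 1.04). Entpd1 (CD39), an ectonucleotidase, had 111 and 83.4 CPM (1.33-fold, 1.08 to 1.64). The gene at least 2-fold lower was Gpr83, a receptor of resting regulatory T cells, on 2 and 40 UMIs (1.92 and 8.12 CPM). The 8 T cell markers, which include the Cd3 genes of the rule, summed to 6512 and 6566 CPM. All 6 of the cell type's working markers were present, and the rule used Foxp3, Isg15 and Ifit1 among them. Cxcl10, Iigp1 and Samhd1 were each higher in the interferon-high cells. The markers were chosen with earlier results of these data known, so this is a description only. Cxcl10 UMIs were found in a minority of the interferon-high cells, as given above.

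Of 28 effector genes of tumour regulatory T cells, 0 were at least 2-fold higher and 1, Cd83, was lower in macrophage-low cells, near the 2.2% and 4.14% of all genes. The median log2 ratio was -0.10, beside -0.08 over all genes. Cd83, an activation marker, had 17.3 CPM in interferon-high and 51.4 CPM in other cells, but 32.6 and 54.1 CPM over all cells, which was within the 2-fold limit. Gzmb, granzyme B, had 1902 and 1600 CPM (1.19-fold, 1.13 to 1.25). Il10 had 34.5 and 62.5 CPM (0.55-fold, 0.38 to 0.78), Havcr2 (TIM-3) 31.6 and 55.0 CPM (0.58-fold, 0.39 to 0.83), and Klrg1, a marker of terminally differentiated cells, 282 and 349 CPM (0.81-fold, 0.71 to 0.91). Klrg1 was found in 42.7% and 48.7% of thinned cells, so the interferon-high state and Klrg1 occurred in many of the same cells. Of 14 naive and central T cell genes, 1 (Dapl1, on 1 and 28 UMIs) was at least 2-fold lower and none higher, with a median log2 ratio of -0.35. Ly6c1, an interferon-responsive surface antigen on that list, had 64.3 and 34.3 CPM (1.87-fold, 1.39 to 2.5), and Il7r 338 and 430 CPM (0.78-fold, 0.70 to 0.88).

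Of 20 death and survival genes, 2 were at least 2-fold higher in both readings. Tnfsf10, which encodes the death ligand TRAIL, had 93.0 and 36.1 CPM in interferon-high and other macrophage-low cells (2.57-fold, 1.99 to 3.31). Mlkl, the pore-forming protein of necroptosis, had 9.59 and 3.25 CPM (2.95-fold, 1.20 to 6.92). Mcl1, a survival gene, had 405 and 402 CPM. None of 22 T cell receptor and immediate early genes and none of 12 dissociation genes was at least 2-fold higher or lower. Among all genes of macrophage-low cells 2.2% were higher and 4.14% lower by that much, so these counts do not set either list apart. Median mitochondrial content was 2.15% in interferon-high and 2.63% in other Foxp3 cells of the vehicle library, and 3.39% and 3.68% in the mSTAR1302 library.

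Over the whole table of genes of at least 20 CPM, few differed by 2-fold. Among all cells of the rule 170 of 5778 genes were at least 2-fold higher (2.94%) and 29 lower (0.502%), and among macrophage-low cells 99 of 5722 were higher (1.73%) and 44 lower (0.769%). Higher genes were thus 85.4% of those past the limit among all cells of the rule, and 71.4% when each cell was scaled to its own total and weighted equally. After thinning to 3000 UMIs before the gates the balance turned, with 275 genes higher and 332 lower (45.3% higher). That reading left 83 interferon-high cells of 3000 UMIs each, so genes near 20 CPM rest on few UMIs there. The 15 leading genes over all cells were Mmp13, Inhba, Ptgs2, Mmp12, Il1b, Cxcl9, Ifi44, Apoe, Ifit3b, Rsad2, Oasl1, C1qb, Cmpk2, C1qc and C1qa. Of these, Mmp13 had all of its 72 UMIs in 1 cell and Apoe had 95.9% of its 726 UMIs in 1 cell. In macrophage-low cells Mmp13 was at 0 in both sets, Inhba was at 0 in the interferon-high cells, and Il1b, Apoe, C1qb and C1qc had log2 ratios of -0.041, 0.35, -0.061 and -0.72. Apoe, C1qb and C1qc are among the markers that the macrophage-low limit itself restricts.

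Lower genes included cytokines that few cells made. Il13, a type 2 cytokine, had 0 UMIs in the 142 interferon-high cells and 163 in the 853 others, at least 11.9-fold lower against a floor of 3 UMIs over the set, but 137 of the 163 were in 1 cell; macrophage-low cells had 0 and 26 UMIs. Tnfsf8, the CD30 ligand, had 6.24 and 38.1 CPM over all cells and 4.79 and 32.3 CPM in macrophage-low cells, from 5 UMIs in 1 cell and 159 in 18. Csf2 (GM-CSF) had 8.32 and 39.0 CPM over all cells and 11.5 and 34.9 CPM in macrophage-low cells, with up to 132 UMIs in 1 of the others. Genes spread over more cells were Ddx10, an RNA helicase gene, with 15.3 and 41.0 CPM from 21 and 192 cells (0.372-fold, 0.230 to 0.576), and Yes1, a SRC-family kinase gene, with 7.63 and 21.6 CPM from 11 and 112 cells (0.353-fold, 0.172 to 0.650). In macrophage-low cells these folds were 0.463 (0.273 to 0.742) and 0.267 (0.0960 to 0.601). The other lower genes named by the rule were Tnfsf11, Lgals7, Pibf1, Prps1 and Spata7 over all cells, with log2 ratios between -1.36 and -1.12. In macrophage-low cells they were Plac8, Anapc5, Lcorl, 2300009A05Rik, Nop14 and Pank3, with log2 ratios between -1.81 and -1.28. Plac8 had a log2 ratio of 0.29 over all cells, where 1 cell held 74.6% of its 126 interferon-high UMIs.

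In the mSTAR1302 library the 13 interferon-high cells gave 107531 UMIs, so single genes rest on few counts. The effector list summed to 14442 CPM in interferon-high and 8244 CPM in other Foxp3 cells (1.75-fold, 1.65 to 1.85), with a median log2 ratio of 1.26. Samhd1 had 809 and 422 CPM (1.92-fold, 1.49 to 2.45), Iigp1 223 and 88.5 CPM (2.52-fold, 1.5 to 4.12), and Irf7 121 and 28.5 CPM (4.24-fold, 1.93 to 9.05). Cxcl10 had 307 and 76.5 CPM (4.01-fold, 2.51 to 6.34), from 4 of 13 and 20 of 101 cells, beside 76.5 CPM in near-empty droplets. Ly6a had 1042 and 1118 CPM (0.93-fold, 0.76 to 1.14), and Bst2 83.7 and 72.0 CPM (1.16-fold, 0.50 to 2.40), whereas both were at least 2-fold higher in the vehicle library. Whether these ratios differ between treatments cannot be told apart from a difference between 2 libraries. The identity list had a median log2 ratio of -0.09. Klrg1 had 2 UMIs in the 13 interferon-high cells and 93 in the 101 others (0.133-fold, 0.0159 to 0.495).

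The interferon-high share of non-cycling Foxp3 cells was 11.4% in the mSTAR1302 library (13 of 114; exact binomial interval 6.21 to 18.7) and 14.3% in the vehicle library (142 of 995; 12.2 to 16.6). The difference was -2.87 points (-8.56 to 4.74). That interval covers counting error only, and with 1 library per group the treatments cannot be compared. After thinning every cell to 3000 UMIs before the gates, with a limit of 2 interferon UMIs, the shares were 9.52% (6 of 63) and 14.8% (83 of 562). Fewer Foxp3 cells were recovered from the mSTAR1302 library, 146 of its 937 CD4 cells with cycling cells included, against 1365 of 1987 in the vehicle library.

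Within the vehicle library the share was higher among Foxp3 cells than among other T cells at full depth. It was 14.3% of non-cycling Foxp3 cells, 7.28% of CD4 cells without Foxp3 (42 of 577) and 6.42% of CD8 cells (135 of 2104). Foxp3 cells exceeded CD8 cells by 7.86 points (5.46 to 10.4), and by 8.25 points (5.23 to 11.6) after thinning. They exceeded CD4 cells without Foxp3 by 6.99 points (3.77 to 10.1), but by 3.5 points (-0.589 to 7.57) after thinning before the gates, an interval that includes 0. With gates set at full depth and only the interferon UMIs read at 3000 UMIs per cell, the difference was 4.65 points (0.986 to 8.10). In the mSTAR1302 library the shares were 11.4% of Foxp3 cells, 7.49% of CD4 cells without Foxp3 (55 of 734) and 9.45% of CD8 cells (521 of 5514), and the Foxp3 share exceeded the others by 3.91 points (-1.71 to 11.4) and 1.95 points (-3.30 to 9.30). After thinning before the gates these differences were 0.75 points (-5.75 to 11.05) and -1.94 points (-7.96 to 8.16).

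**Figure D5:**
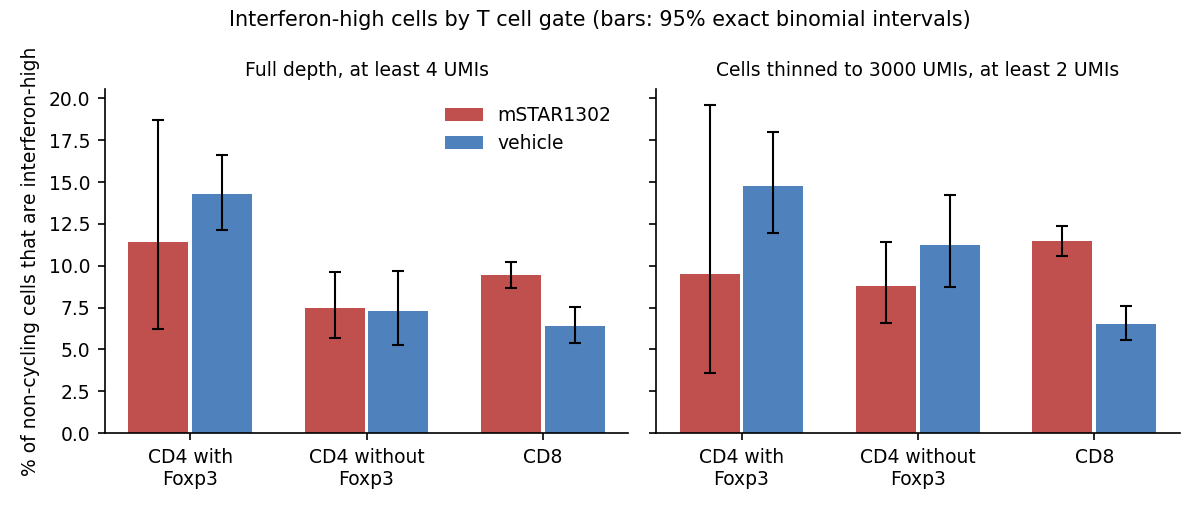
Percentage of non-cycling T cells that are interferon-high by gate, with 95% exact binomial intervals, for the mSTAR1302 library (red) and the vehicle library (blue). The left plot uses full depth and a limit of 4 interferon UMIs, the right one cells thinned to 3000 UMIs before the gates and a limit of 2; the vehicle Foxp3 bar, at 14.3% and 14.8%, is the tallest in both.

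As a sum, the antiviral effector list stood higher in Foxp3 cells than in other T cells of the vehicle library, inside and outside the interferon-high set. Ifi27l2a and Ly6a made up much of that sum in Foxp3 cells. The gates were not compared without them, so the order of the sums may not hold for the rest of the list. Interferon-high CD4 cells without Foxp3 stood above interferon-high Foxp3 cells for the GTPases and the sensors. In macrophage-low vehicle cells the effector list summed to 19439 CPM in interferon-high and 8516 CPM in other Foxp3 cells, to 14836 and 5114 CPM in CD4 cells without Foxp3, and to 12668 and 3332 CPM in CD8 cells. The folds were 2.28 (2.24 to 2.32), 2.90 (2.80 to 3.0) and 3.8 (3.73 to 3.88), in the opposite order to the levels. The GTPases summed to 2750 and 1302 CPM in interferon-high and other Foxp3 cells, to 3330 and 830 CPM in CD4 cells without Foxp3, and to 2310 and 601 CPM in CD8 cells. The sensors summed to 414 and 226 CPM, 517 and 160 CPM, and 379 and 171 CPM in the same gates. Ifi27l2a had 6919 and 3082 CPM in interferon-high and other Foxp3 cells, and 1989 and 595 CPM in the same sets of CD8 cells. Ly6a had 3127 and 1298 CPM in Foxp3 cells, and 1001 and 181 CPM in CD8 cells. Samhd1 had 727 and 376 CPM in Foxp3 cells, and 443 and 88.8 CPM in CD8 cells. Isg15, which the rule used, stood at 912 and 67.2 CPM in Foxp3 cells, and 777 and 25.7 CPM in CD8 cells.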

How the data were processed

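The deposited matrices hold raw UMI counts, whole numbers for each gene in each droplet, which the authors made with Cell Ranger. The file headers give version 4, whereas 6.0.1 stands in the submitters' processing notes beside the mm10 genome, so the version is uncertain. Both matrices were unfiltered. The cell limits given above left 9155 mSTAR1302 and 7615 vehicle cells (69448080 and 83854956 UMIs). Doublets were not called. Counts were summed over the cells of a set and scaled to 1000000. Log2 ratios used a pseudocount of 1 CPM and folds none, with exact conditional binomial intervals of 95%; shares had Clopper-Pearson intervals. The intervals cover counting error, and cells vary by more. Named genes were the 15 higher and 10 lower genes whose interval bound nearest to 1 was farthest from it, among genes of at least 20 CPM, plus leading members of each gene list and the marker genes. Shares of cells with a UMI were compared after thinning to 3000 UMIs, which leaves out shallower cells. The ratio code was tested on simulated counts. There was no test between groups and no replicate block. The members and lists were chosen with earlier results of these data known. Gene positions are from GENCODE M21 on GRCm38, the assembly of mm10, matched for 32158 of 32285 genes. Software comprised Python 3.11.15 with NumPy 2.4.6, matplotlib 3.10.9, pandas 2.3.3 and SciPy 1.17.1.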

Additional observations from a re-analysis of the deposited data

Results flagged for a closer look

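The rule left out cycling cells, yet interferon-high cells were also found there. In the vehicle library 54 of 370 cycling Foxp3 CD4 cells (14.6%, exact interval 11.2 to 18.6) had at least 4 UMIs of Ifit1, Ifit3 and Isg15. At 3000 UMIs per cell and a limit of 2, the share was 9.59% of 365 cycling cells and 14.4% of 924 non-cycling ones. In the mSTAR1302 library 2 of 32 cycling cells passed.

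Tnfsf11, which encodes RANKL, was higher in interferon-high cells of 1 library and lower in those of the other, with counting intervals on opposite sides of 1. Interferon-high and other Foxp3 cells had 93.0 and 33.0 CPM in the mSTAR1302 library (2.82-fold, 1.19 to 6.2) and 22.2 and 49.5 CPM in the vehicle library (0.448-fold, 0.302 to 0.646), or 24.9 and 39.2 CPM in macrophage-low vehicle cells (0.636-fold, 0.405 to 0.961). The log2 ratios differed by 2.59. The mSTAR1302 value rests on 10 UMIs in 3 cells, of which 5 were in 1 cell, and the difference was not tested.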

How the results depend on the processing

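No paired analysis was possible because each group was 1 library. The lower share under mSTAR1302 stayed below the vehicle share under all 6 alternatives, by -5.99 to -2.21 points, within the interval of the reported difference. The vehicle share of 14.3% was 19.7% with a limit of 3 interferon UMIs and 9.25% with 6. The effector median of 1.66 was 1.46 and 1.82 under those limits and stayed within its interval under the other 12 settings. The identity median stayed between -0.09 and 0.03 under all 14. For the 17 interferon genes named, log2 ratios ranged over all settings between 0.89 and 5.10, with 14 of 289 values under 1.

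Counts of genes moved most. The 170 higher genes were 98 with at least 2 Foxp3 UMIs, 99 in macrophage-low cells, 103 without cells of 10 or more macrophage UMIs (chosen after seeing the data), 98 at 50 CPM and 275 after thinning before the gates, which left 83 interferon-high cells. The 29 lower genes were 18 with a limit of 3 interferon UMIs, 72 with 6, 332 after thinning, 4 with cycling cells included, 44 in macrophage-low cells, 50 with each cell weighted equally, 97 at 10 CPM and 0 at 50 CPM. The higher genes were 85.4% of those past 2-fold in the reported comparison, 45.3% after thinning, 69.2% in macrophage-low cells, 69.5% with 6 interferon UMIs, 71.4% with equal weights, 71.2% at 10 CPM, 74.2% with 2 Foxp3 UMIs, 96.8% with cycling cells and 100% at 50 CPM.

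Macrophage genes and a few others turned direction. Their median log2 ratio of 2.37 was 0.16 among cells of 4000 to 20000 UMIs, -0.67 after thinning, -0.60 with at least 2 Foxp3 UMIs, -0.51 in macrophage-low cells and -0.16 without cells of 10 or more macrophage UMIs. With 6 interferon UMIs, Mmp13 was -3.49, Inhba -2.51, Ptgs2 -1.18 and Mmp12 -3.23. After thinning, Ptgs2 was -0.76, Il1b -0.76, Apoe -0.87, C1qb -1.19, C1qc -1.27, Pibf1 0.63 and Spata7 1.13. With at least 2 Foxp3 UMIs, Apoe was -0.066, C1qb -2.23, C1qc -1.96 and C1qa -1.51. Among cells of 4000 to 20000 UMIs, C1qb was -0.77, C1qc -0.62 and C1qa -0.22. In macrophage-low cells, Inhba was -0.27, Il1b -0.041, C1qb -0.061, C1qc -0.72 and C1qa -0.51. Without cells of 10 or more macrophage UMIs, Inhba was -0.21, Mmp12 -0.043, Il1b -0.48, Apoe -0.075, C1qb -0.92, C1qc -0.58 and C1qa -0.25. The 2 alternatives on macrophage UMIs remove those UMIs by construction. The barcode with 2650 macrophage UMIs, which held 48130 UMIs and 1 Foxp3 UMI, also lies outside the depth window and the limit of 2 Foxp3 UMIs. The second barcode, with 4 interferon UMIs, counts among the other cells at a limit of 6. The cause of the turned values under these and the remaining settings was not tested.

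In the mSTAR1302 library, 13 cells with 107531 UMIs in all left 9 effector genes at 0 in the interferon-high cells.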
